A study of Mus musculus with 19 samples.

Results

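The effect of the A2A transgene on the hippocampal transcriptome was measured over both APP/PS1 backgrounds. Mice were assigned by genotype label alone, 9 carrying A2A and 10 without it, and together they were all 19 mice of the series. The A2A effect was the A2A term of a model that also held APP/PS1, fitted to the raw counts of every mouse. Carriers were 5 A2A and 4 APP/PS1 A2A mice, and mice without A2A were 5 WT and 5 APP/PS1 mice. Every mouse was a female and was heterozygous for the transgenes it carried, the APP/PS1 line being kept on a C57Bl6/J background. A2A mice carried TRE-A2A, a mouse A2A receptor cDNA behind a Tet-responsive element. APP/PS1 mice carried the amyloid transgenes APPswe/PS1dE9, and APP/PS1 A2A mice carried both. All 4 groups, WT and APP/PS1 included, received the vector AAV2/5-CBA-tTA-WPRE-bGH in the dorsal CA1 of both hemispheres at 3 months and were killed at 6 months. The tTA transactivator it encodes is driven by the CBA promoter, in a serotype with neuronal tropism. Tissue around the injected field was part of every hippocampal sample. Each library was the hippocampus of 1 hemisphere of 1 mouse.

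Adenosine is released and formed outside cells when synapses are active or tissue is stressed. The A2A receptor, encoded by Adora2a, couples to stimulatory G proteins, so that its activation raises cAMP and engages protein kinase A and the transcription factor CREB. The receptor is abundant in the indirect-pathway neurons of the striatum and sparse in the normal hippocampus, where the inhibitory A1 receptor prevails. It is known there for facilitating glutamate release, and its level in the hippocampus rises with ageing and in Alzheimer's disease.

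The transgene is an optimised cDNA, and the study's designed primers show how it differs from the endogenous gene. They are printed because a count of Adora2a may or may not include reads of the transgene.
transgenic receptor, forward primer: AgAAggcccaaCggctac
endogenous gene, same stretch: CgGCggcccaaTggctac
endogenous gene, reverse primer: gcatctcccgaaaccatgac
Both 18-base stretches are written 5′ to 3′ on the coding strand, and capitals mark the 4 positions at which they differ. The endogenous stretch is the mm10 reference sequence at chr10:75333754-75333771, in coding exon 3 of Adora2a, and both sequences encode the same 6 amino acids. The reverse primer of the endogenous assay matched the reference without a mismatch, on the opposite strand at chr10:75325837-75325856. That site lies in exon 2, outside the coding sequence. The forward primer of the endogenous assay had 5 mismatches in 20 bases to its closest stretch of the reference Adora2a transcripts. The reverse primer of the transgenic assay had 7 in 21. How many transgene reads aligned to the mm10 gene was not tested, and the counts of Adora2a therefore cannot serve as a check of the A2A labels.

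Libraries held 21305902 to 53717373 counts, with a median of 36502915 counts in carriers and 34062531 counts in mice without A2A. APP/PS1 A2A libraries were the deepest, at a median of 46299098 counts, against 34132372 counts in A2A, 32782781 counts in WT and 35342281 counts in APP/PS1 mice. Of 35640 genes with a count, 18529 passed the filter on low counts and were tested. Hippocampal markers were present in every mouse, 12 CA1 pyramidal genes summing to 1224 to 1481 CPM in carriers and 1174 to 1687 CPM in mice without A2A, where CPM are counts scaled to library size. Lamr1-ps1, a pseudogene listed with the genes of the amyloid cassette, followed the APP/PS1 labels, at 14.4 to 21.6 CPM in APP/PS1 A2A mice and 0.0281 to 0.179 CPM in A2A mice, against 15.3 to 18.2 CPM in APP/PS1 mice and 0 to 0.423 CPM in WT mice.

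No gene was called for the A2A main effect, which is 0% of those tested, by edgeR's quasi-likelihood test. A call needed both a Benjamini-Hochberg adjusted p below 0.05 and a log2 fold change beyond 0.32 in either direction. Without adjustment, 211 genes (1.14%) were higher and 310 (1.67%) lower in carriers at p under 0.05, together 521 genes or 2.81%. DESeq2 on the same counts called 1 gene, Smtn, with 562 genes under an unadjusted p of 0.05. limma-voom called 0 genes with 460 below that p. In the same edgeR fit the APP/PS1 term called 35 genes higher (0.189%) and 1 lower (0.0054%). In no gene did all 9 carriers lie above, or all 9 below, the 10 mice without A2A (0% in each direction).

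The width of the intervals shows what a difference had to be to be seen. The median log2 fold change over all genes was -0.0029, and 9025 genes (48.7%) were positive. The 95% interval lay within 1 log2 unit of 0 for 17214 genes (92.9%) and within 0.32 for 10330 genes (55.8%). Precision followed the level of the gene. Among 2354 genes at 100 CPM or more, 91.0% had an interval inside 0.32, and among 3596 genes under 1 CPM, 0.306% did. Genes under 1 CPM were therefore measured least precisely, and for them a missed threshold leaves wide room for a difference.

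Adora2a had the highest values of the series in 2 carriers and was otherwise close to the level of the other mice. In A2A mice it was at 9.35, 1.96, 2.27, 2.18 and 0.865 CPM, and in APP/PS1 A2A mice at 10.3, 1.96, 1.27 and 1.53 CPM. WT mice had 1.27, 1.42, 1.09, 1.54 and 1.48 CPM, and APP/PS1 mice 1.62, 1.43, 1.83, 1.15 and 1.57 CPM. The groups overlapped, 6 of 9 carriers lying above the highest mouse without A2A and 1 below the lowest. In raw reads the 2 high carriers had 205 and 380 counts of Adora2a. The log2 fold change was 1.28 ± 0.41 (SE; 95% interval 0.41 to 2.15; unadjusted p = 0.00601, edgeR), and the adjusted p was 0.999, so the gene was not called. Without A2A replicate 1 the log2 fold change was 0.88, and without APP/PS1 A2A replicate 1 it was 0.76. With both left out, a choice made after seeing these values, it was 0.25 (unadjusted p = 0.168, edgeR). limma-voom gave Adora2a 0.69 (unadjusted p = 0.0892), and 0.45 with sample quality weights (unadjusted p = 0.177, limma). DESeq2 gave it 1.29 (unadjusted p = 0.000889) and did not call it, at an adjusted p of 0.9997.

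**Figure D1:**
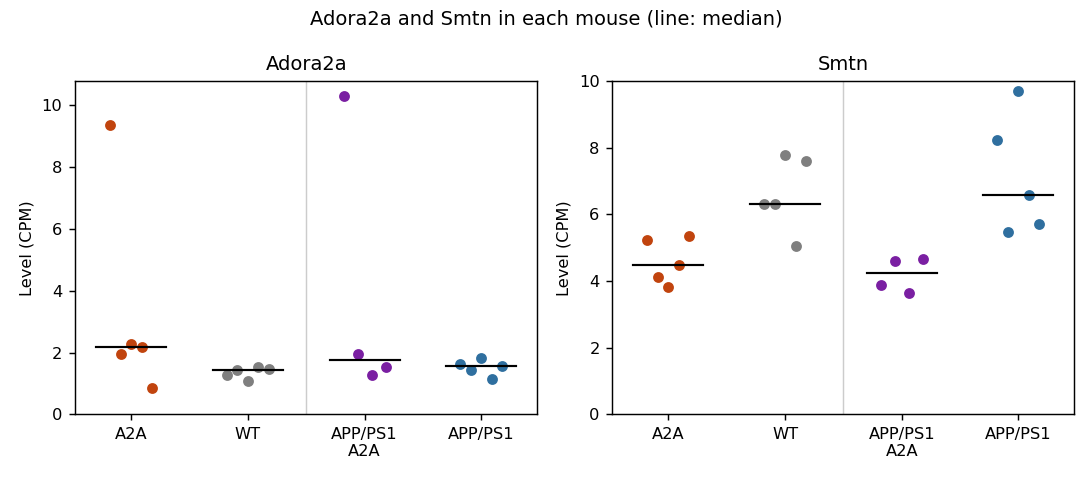
Adora2a and Smtn in CPM (y axis, linear, from 0) in each mouse by group (x axis), points being mice and lines the group medians. Adora2a stands out in A2A replicate 1 at 9.35 CPM and APP/PS1 A2A replicate 1 at 10.3 CPM, while 7 of 9 carriers lie below the lowest mouse without A2A for Smtn.

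Genes of striatal indirect-pathway neurons were set beside those 2 mice, since the dissection borders other regions. The list of receptor partners and indirect-pathway genes summed to 838 CPM in A2A replicate 1 and 839 CPM in APP/PS1 A2A replicate 1, inside the range of 794 to 922 CPM in carriers and that of 800 to 993 CPM in mice without A2A. Such a sum mostly follows its most abundant members. The list's median log2 fold change for A2A against WT was -0.014, and -0.046 without A2A replicate 1. For APP/PS1 A2A against APP/PS1 it was -0.022, and -0.16 without APP/PS1 A2A replicate 1. Both were the lowest medians with a mouse left out. Drd1, the D1 dopamine receptor, was highest in APP/PS1 A2A replicate 1 at 25.9 CPM, against a maximum of 11.1 CPM in mice without A2A. The same mouse had the highest dentate granule cell sum of the series, 1371 CPM, against at most 1296 CPM in mice without A2A. Grm5 and Ppp1r1b, 2 other members of the striatal list, stayed negative with each mouse left out, at -0.13 to -0.073 and -0.36 to -0.11. Of that striatal list's 17 tested genes, 9 were negative in the main effect and 0 had an unadjusted p under 0.05. The part of neighbouring tissue or of granule cells in the Adora2a and Drd1 values was not tested.

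The other adenosine receptors showed no difference beyond their error. Adora1, the inhibitory A1 receptor, ran from 247 to 413 CPM with a median of 373 CPM in carriers and from 242 to 463 CPM with a median of 314 CPM in mice without A2A (log2 fold change 0.05 ± 0.12 SE, unadjusted p = 0.685, edgeR). Adora2b, the low-affinity A2B receptor, was at 2.97 to 4.15 CPM in carriers and 2.78 to 4.87 CPM in mice without A2A (-0.15 ± 0.12). Adora3, the A3 receptor, was at 0.499 to 1.08 CPM in carriers and 0.499 to 1.15 CPM in mice without A2A (0.14 ± 0.16). Both sets of mice overlapped in all of these. Mouse App and Prnp, which share sequence with the amyloid transgenes or their prion promoter vector, had log2 fold changes of -0.0025 and 0.03.

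Smtn had the smallest p of all genes. It encodes smoothelin, a cytoskeletal protein of contractile smooth muscle, and lies at chr11:3517523-3540612 (mm10). A2A mice had 5.24, 4.11, 3.82, 4.49 and 5.34 CPM, and APP/PS1 A2A mice 3.88, 4.61, 3.63 and 4.65 CPM. WT mice had 6.32, 6.31, 7.79, 5.04 and 7.60 CPM, and APP/PS1 mice 8.23, 5.47, 9.70, 6.58 and 5.70 CPM. Carriers were low in both backgrounds, and 7 of 9 lay below the lowest mouse without A2A, WT replicate 4 at 5.04 CPM. The log2 fold change was -0.64 ± 0.12 (SE; 95% interval -0.89 to -0.39; unadjusted p = 3.43e-05, edgeR), with an adjusted p of 0.635 that misses the threshold. DESeq2 gave -0.64 and called it, at an adjusted p of 0.00239. A2A mice were lower than WT by a log2 fold change of -0.53 (unadjusted p = 0.00477, edgeR). For APP/PS1 A2A against APP/PS1 mice it was -0.76 (unadjusted p = 0.000342, edgeR). A difference between these effects was not seen at this precision (interaction, unadjusted p = 0.329, edgeR). Leaving out each mouse in turn gave -0.69 to -0.57. Of 28 tested genes within 500 kb, Smtn included, Smtn alone had an unadjusted p under 0.05. Tagln, another smooth muscle cytoskeletal gene, had a log2 fold change of -0.49 (unadjusted p = 0.0554, edgeR), with 2.74 to 6.86 CPM in carriers and 4.04 to 13.8 CPM in mice without A2A. It was named for its small p among 13 mural and vascular fibroblast genes, of which 9 were negative and 4 positive. The summed level of those 13 genes had a median of 265 CPM in carriers and 245 CPM in mice without A2A.

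Among the 10 genes of smallest p on the higher side, none was called and none separated the groups. Lyrm4, which serves the assembly of iron-sulphur clusters in mitochondria, was at 14.6, 16.01, 17.4, 19.9 and 17.5 CPM in A2A mice and 17.6, 16.7, 16.5 and 15.4 CPM in APP/PS1 A2A mice. WT mice had 14.5, 14.0, 12.3, 14.7 and 14.5 CPM and APP/PS1 mice 16.1, 15.04, 13.6, 13.4 and 14.1 CPM. Of the carriers 6 lay above the highest mouse without A2A, and the log2 fold change was 0.24 ± 0.06 (SE, unadjusted p = 0.000509, edgeR). Frat1, a protein that binds glycogen synthase kinase 3 in Wnt signalling, had a median of 10.1 CPM in carriers and 8.71 CPM in mice without A2A, a log2 fold change of 0.33 ± 0.09. mt-Nd6, a complex I subunit of the mitochondrial genome, was at a median of 103 CPM in carriers and 86.2 CPM in mice without A2A (0.26 ± 0.08). The lincRNA 2410004I01Rik, under 1 CPM throughout, had 7 of 9 carriers above every mouse without A2A (0.56 ± 0.17). The other 6 were Gm26723 at 0.85, 2610318N02Rik at 0.65, Gm2000 at 0.57, Gm16470 at 0.92, Lrrc14 at 0.19 and Far2os1 at 0.86, each a log2 fold change. Gm16470 is annotated as a processed pseudogene, so its reads may be shared with its parent gene, and its value is uncertain.

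On the lower side the other 9 genes were not called either, and most were under 1 CPM in carriers. Igf2, a growth factor made by choroid plexus and meninges, had 0.638, 0.827, 0.505, 1.06 and 0.626 CPM in A2A mice and 0.163, 0.640, 0.817 and 0.387 CPM in APP/PS1 A2A mice. WT mice had 0.997, 4.74, 0.410, 2.10 and 3.06 CPM, and APP/PS1 mice 0.369, 2.03, 1.58, 4.66 and 0.106 CPM. The mice without A2A spread over both sides of the carriers, and the log2 fold change was -1.70 ± 0.53 (SE, unadjusted p = 0.00469, edgeR). Slc26a7, an anion transporter, was at 0.656 to 4.65 CPM in carriers and 1.59 to 8.66 CPM in mice without A2A (-1.04 ± 0.32). With the mean log2 level of the choroid plexus genes as a term, Igf2 was at -0.83 (unadjusted p = 0.0648, edgeR) and Slc26a7 at -0.84 (unadjusted p = 0.0158, edgeR). Gk5, a glycerol kinase family member, was at 4.83 to 5.94 CPM in carriers and 5.60 to 7.11 CPM in mice without A2A (-0.21 ± 0.06), 7 of 9 carriers lying below every mouse without A2A. The rest were Gm43422 at -1.11, Zfp992 at -1.01, Plekhg6 at -1.33, Gm45120 at -0.76, AC123705.1 at -0.46 and Gm26779 at -0.77 on the log2 scale. Zfp992 belongs to a zinc finger family of similar sequences, so its reads may be split among copies.

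**Figure D2:**
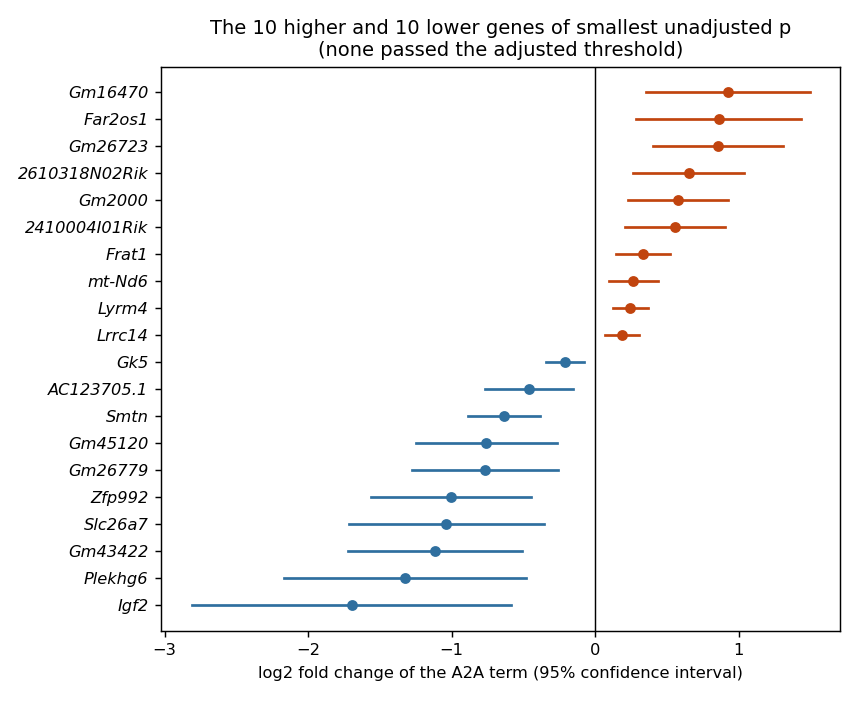
Log2 fold change of the A2A main effect (x axis) with its 95% interval for the 10 higher and 10 lower genes of smallest unadjusted p, a point being the estimate over 9 carriers and 10 mice without A2A. None was called by edgeR, and the genes with the largest estimates, such as Igf2 at -1.70 and Plekhg6 at -1.33, have the widest intervals.

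Genes along the receptor's signalling route were close to 0. Of 31 cAMP and protein kinase A genes, 17 were positive, with a median log2 fold change of 0.0028, against -0.0029 over all genes. The only member with an unadjusted p under 0.05 was Prkaca, the catalytic subunit of protein kinase A, with 159, 162, 199, 169 and 178 CPM in A2A mice and 176, 192, 174 and 181 CPM in APP/PS1 A2A mice. WT mice had 167, 167, 155, 168 and 157 CPM and APP/PS1 mice 165, 166, 163, 165 and 182 CPM. The ranges overlapped, and the log2 fold change was 0.10 ± 0.04 (SE, unadjusted p = 0.0337, edgeR). Among 14 phosphodiesterases that break down cAMP, 7 were positive, and Pde3b had 0.15 ± 0.07 (unadjusted p = 0.0412, edgeR). Of 17 genes of adenosine production, uptake and breakdown, 11 were positive and 0 had an unadjusted p under 0.05.

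Immediate early genes and CREB targets, which report recent neuronal activity, were mostly negative. Of 31 members 7 were positive, with a median log2 fold change of -0.15, and 0 had an unadjusted p under 0.05. The median was -0.08 for A2A against WT and -0.30 for APP/PS1 A2A against APP/PS1, where 5 of 31 members had an unadjusted p under 0.05, against 2.89% of all genes. Without APP/PS1 replicate 1 the median for APP/PS1 A2A against APP/PS1 was -0.10, and the main median was -0.07 without that mouse or without WT replicate 3. Egr2, an activity-dependent transcription factor, was at 6.79, 2.31, 0.730, 1.59 and 1.01 CPM in A2A mice and 0.786, 1.81, 1.32 and 2.43 CPM in APP/PS1 A2A mice. WT mice had 2.21, 0.599, 15.5, 1.47 and 3.26 CPM and APP/PS1 mice 9.02, 0.767, 0.713, 3.68 and 3.92 CPM. High values stood in single mice of 3 groups, and the log2 fold change was -1.04 ± 0.59 (SE, unadjusted p = 0.0954, edgeR). WT replicate 3, which had the highest Egr2, decided the sign against WT, where the list's median was 0.12 without it. Bdnf, the neurotrophin, had a positive 0.24 ± 0.12, with 48.5 to 103 CPM in carriers, APP/PS1 A2A replicate 1 being the highest, and 37.2 to 63.8 CPM in mice without A2A.

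Synaptic genes differed little. Of 20 presynaptic vesicle and release genes 18 were positive, with a median log2 fold change of 0.05 and 0 under an unadjusted p of 0.05. Glutamate receptors and postsynaptic scaffolds had a median of -0.03 over 27 genes. Among 19 genes of GABA synthesis, receptors and transport, Gabrb2, a subunit of the GABA-A receptor, had -0.31 ± 0.14 (unadjusted p = 0.0405, edgeR), at 75.4 to 125 CPM in carriers and 86.8 to 175 CPM in mice without A2A. In the calpain list, Cast, the inhibitor calpastatin, had -0.33 ± 0.13 and the shared small subunit Capns1 0.12 ± 0.05. Cast was at 9.02 to 14.1 CPM in carriers and 8.77 to 20.03 CPM in mice without A2A, ranges that overlapped, and with the choroid plexus term it had -0.18 (unadjusted p = 0.0607, edgeR).

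Glial and immune lists had medians within 0.1 of 0, except that of myelinating oligodendrocytes, and single mice carried the high values of Lcn2 and Cxcl10. Homeostatic microglial genes were positive for 13 of 15 members (median 0.08), with Siglech, a microglial surface lectin, at 0.15 ± 0.07, and disease-associated microglial genes for 15 of 26 (median 0.08). Without APP/PS1 A2A replicate 1 these medians were 0.04 and -0.03, and without APP/PS1 replicate 4 they were 0.04 and 0.0049. Lcn2, a secreted protein of reactive astrocytes and inflammation, was at 22.5 CPM in A2A replicate 1 and 0.196 to 0.921 CPM in the other carriers, against 0.102 to 0.935 CPM in mice without A2A. Its log2 fold change of 2.37 ± 0.97 was 0.24 without that mouse. Cxcl10, an interferon-induced chemokine, was at 4.25 CPM in APP/PS1 A2A replicate 1 and 0.388 to 0.923 CPM in the other carriers, against 0.250 to 0.867 CPM in mice without A2A. Its log2 fold change of 0.80 ± 0.38 was 0.21 without that mouse. These are the mice with the highest Adora2a, and what links the values was not tested. In the complement list Cd55, a decay factor on cell surfaces, had -0.42 ± 0.19, and in the interferon list Bst2, an antiviral membrane tether, had -0.47 ± 0.21, each with overlapping ranges. Myelinating oligodendrocyte genes were positive for 13 of 13 members at a median of 0.14, with 0 under an unadjusted p of 0.05, and the median lay between 0.02, without APP/PS1 A2A replicate 2, and 0.23, without WT replicate 4. For APP/PS1 A2A against APP/PS1 the myelin median of 0.12 was -0.16 without APP/PS1 A2A replicate 2.

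**Figure D3:**
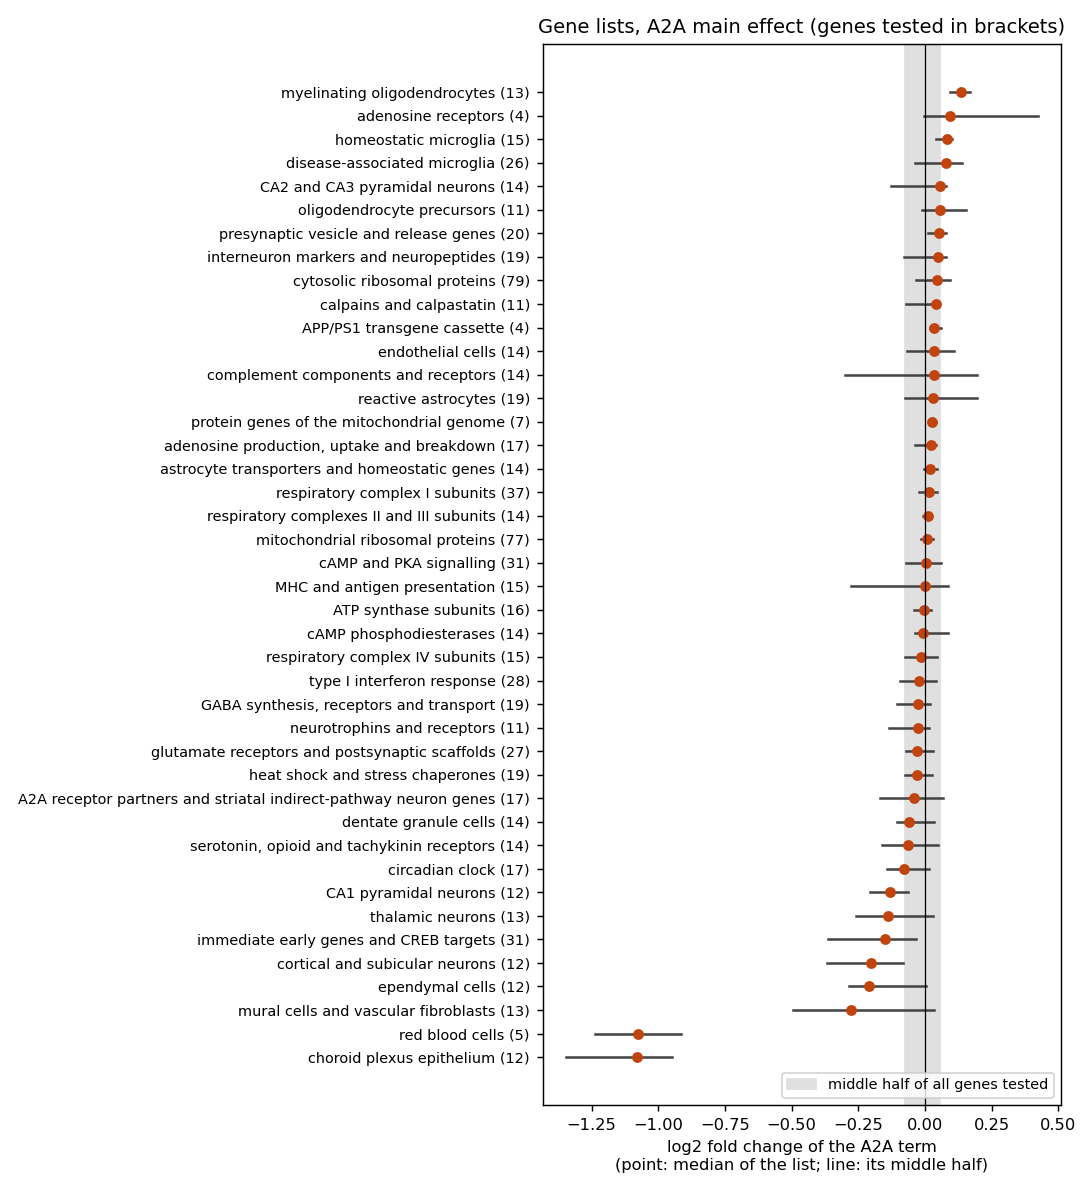
Median log2 fold change of the A2A main effect (x axis) in each of 42 gene lists (rows), with bars for the middle 50% of members and a grey band for the middle 50% of all genes tested. Of the lists, 33 have a median within 0.1 of 0, while choroid plexus and red blood cell genes lie farthest out, near -1.08.

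Markers of tissue around and inside the hippocampus gave the list medians farthest from 0. All 12 choroid plexus genes were negative, with a median of -1.08 on the log2 scale, and 0 had an unadjusted p under 0.05. Their summed level was 2135, 126, 836, 7163 and 186 CPM in A2A mice and 66.6, 2331, 3994 and 1031 CPM in APP/PS1 A2A mice. WT mice had 231, 6866, 1144, 5778 and 8548 CPM and APP/PS1 mice 237, 5405, 2626, 10591 and 738 CPM. Low and high mice stood side by side in each group, and the ranges overlapped. The median was -1.77 without A2A replicate 4 and -0.69 without APP/PS1 replicate 4. Ttr, the transthyretin of choroid plexus epithelium, had -1.10 (unadjusted p = 0.24, edgeR) and Kl, the klotho gene, -0.93 ± 0.52. In bulk tissue, fewer cells of a type and less RNA per cell cannot be told apart. Ependymal genes were positive for 3 of 12 (median -0.21), mural and vascular fibroblast genes, which include Tagln, for 4 of 13 (median -0.28), and thalamic genes for 5 of 13 (median -0.14). Without APP/PS1 replicate 4, the mouse of the highest choroid plexus sum, the ependymal median was 0.10 and the thalamic median 0.01, and with the choroid plexus term the ependymal median was 0.35. The mural median was -0.15 without APP/PS1 replicate 3. Genes of CA1 pyramidal neurons, the injected field, were positive for 1 of 12 at a median of -0.13, and those of cortical and subicular neurons for 1 of 12 at -0.20. In each background alone, 4 of 12 CA1 genes were positive. For cortical and subicular genes the counts were 6 of 12 against WT and 1 of 12 against APP/PS1. The CA1 median was -0.22 without APP/PS1 A2A replicate 1 and -0.08 without WT replicate 3, and the cortical and subicular median was -0.12 without APP/PS1 replicate 3. The part of dissection in these lists was not tested.

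**Figure D4:**
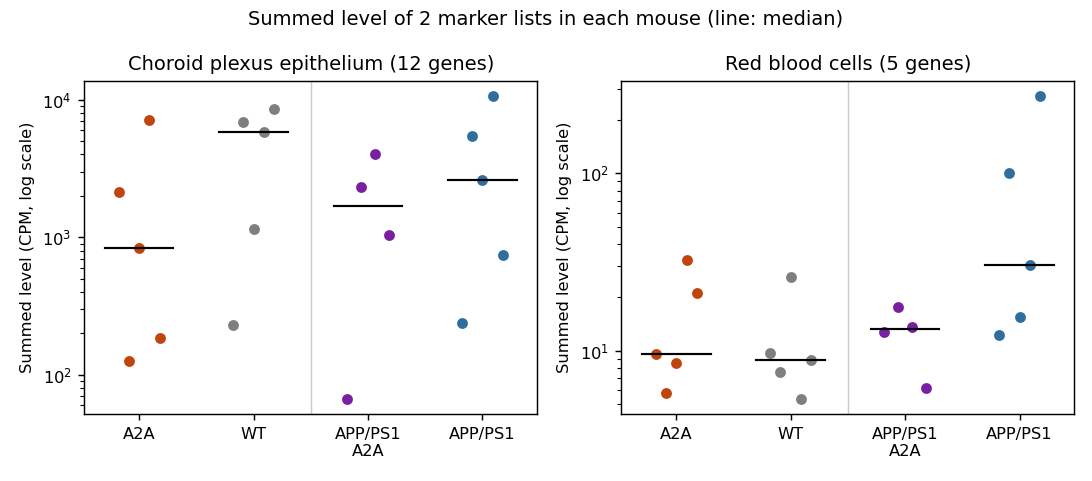
Summed CPM of the choroid plexus genes and of the red blood cell genes (y axes, logarithmic) in each mouse by group (x axis). Choroid plexus sums run from 66.6 to 7163 CPM in carriers and from 231 to 10591 CPM in mice without A2A, and APP/PS1 replicate 5 has the highest red blood cell sum, 272 CPM.

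Red blood cell genes differed in direction between the backgrounds, and single mice moved their medians. All 5 tested globin and erythroid genes were negative in the main effect, at a median of -1.08, but the median was 0.42 for A2A against WT and -2.80 for APP/PS1 A2A against APP/PS1. Their sum was 5.76 to 32.5 CPM in A2A mice and 6.22 to 17.6 CPM in APP/PS1 A2A mice, against 5.34 to 26.1 CPM in WT mice and 12.4, 100, 15.5, 30.5 and 272 CPM in APP/PS1 mice. All 5 had an unadjusted p under 0.05 for APP/PS1 A2A against APP/PS1 and for the interaction (edgeR), against 2.89% and 3.82% of all genes. Without APP/PS1 replicate 5 the main median was -0.50 and that against APP/PS1 -1.62, and without A2A replicate 4 the median against WT was -0.0047. The median against APP/PS1 stayed between -3.07 and -1.62 with each mouse left out. Reads of Hba-a1 and Hba-a2, near-identical alpha globin genes, may be split between them.

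The additive term assumes the same A2A effect with and without APP/PS1, and both backgrounds were therefore set side by side. They share no mouse. A2A against WT called 0 genes, with 630 (3.40%) under an unadjusted p of 0.05, and APP/PS1 A2A against APP/PS1 called 0 by edgeR and by DESeq2, with 536 (2.89%) under that p in edgeR. In the first, 364 (1.96%) were higher and 266 (1.44%) lower in A2A mice, and in the second, 151 (0.815%) were higher and 385 (2.08%) lower in APP/PS1 A2A mice. Across genes, which are not independent replicates, the log2 fold changes of both backgrounds had a Pearson correlation of 0.137 and a Spearman correlation of 0.044, and 9537 genes (51.5%) had the same sign. At an unadjusted p under 0.05 in both, 11 genes (0.0594%) had the same direction, among them Smtn, Adora2a, Lyrm4, Igf2 and Slc26a7, and 33 genes (0.178%) had opposite directions. Of those 33, 30 were higher in A2A mice against WT and lower in APP/PS1 A2A mice against APP/PS1. Smtn, Lyrm4, Igf2 and Slc26a7 were named for a small main-effect p, which draws on both backgrounds, so their shared direction is no separate result.

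The interaction itself called 0 genes by edgeR, with 708 (3.82%) under an unadjusted p of 0.05. Its smallest p was that of Capn11, a calpain protease. Capn11 was at 4.01, 0.732, 7.38, 2.24 and 1.76 CPM in A2A mice, against 0.725, 0.349, 0.342, 0.334 and 0.739 CPM in WT mice. APP/PS1 A2A mice had 0.705, 0.565, 0.635 and 0.861 CPM, against 2.16, 4.03, 5.98, 0.826 and 1.06 CPM in APP/PS1 mice. A2A and APP/PS1 mice thus held the high values, with overlap in each pair, and the main effect of 0.53 ± 0.81 averaged differences of 2.67 and -2.01. The interaction was -4.68 on the log2 scale (unadjusted p = 4.31e-05 and adjusted p = 0.798, edgeR), and DESeq2 called it at an adjusted p of 7.02e-05. DESeq2 also called Capn11 for A2A against WT, at 2.69 with an adjusted p of 0.0203. Aes, a corepressor of the Groucho family, had a main effect of 0.00 and an interaction of -0.55, and Tlnrd1, a talin-related protein, -0.17 and -0.97.

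Subunit genes of complexes I and IV and of ATP synthase were mostly positive in the first contrast and mostly negative in the second. The same held for genes of cytosolic and of mitochondrial ribosomal proteins. For complex I, 36 of 37 subunit genes were positive for A2A against WT (median 0.12) and 5 of 37 for APP/PS1 A2A against APP/PS1 (median -0.08), against 50.3% and 47.7% of all genes, and the main median was 0.015. For complex IV the counts were 14 of 15 (0.18) and 1 of 15 (-0.14). For cytosolic ribosomal proteins they were 71 of 79 (0.16) and 16 of 79 (-0.08), and for mitochondrial ribosomal proteins 68 of 77 (0.093) and 12 of 77 (-0.057). For ATP synthase they were 14 of 16 (0.11) and 2 of 16 (-0.10). An unadjusted interaction p under 0.05 was reached by 8 complex I, 6 complex IV and 4 ATP synthase genes, against 3.82% of all genes. Among ribosomal genes it was reached by 13 cytosolic and 20 mitochondrial ones. The medians of these lists had opposite signs in both backgrounds whichever mouse was left out, but their sizes moved. Without A2A replicate 4 the medians against WT were 0.065 for complex I, 0.12 for complex IV and 0.10 for cytosolic ribosomal proteins. The ATP synthase median against WT was 0.017 without WT replicate 3. Without APP/PS1 A2A replicate 4 the medians against APP/PS1 were -0.039 for complex I and -0.088 for complex IV. The cytosolic ribosomal median was -0.037 without APP/PS1 A2A replicate 3 and -0.18 without APP/PS1 A2A replicate 1. Complexes II and III (0.08 against WT and -0.04 against APP/PS1) and the mitochondrial genome (0.11 and -0.04) did not keep opposite signs, their medians against APP/PS1 being 0.0052 without APP/PS1 A2A replicate 4 and 0.012 without APP/PS1 A2A replicate 2. The transcripts are short, with median lengths of 667 bases for complex I, 545 for complex IV and 621 for ATP synthase. For cytosolic and mitochondrial ribosomal proteins they were 632 and 849.5 bases. For A2A against WT, 60.0% of genes under 1000 bases and 29.4% of genes of 4000 bases or more were positive, while for APP/PS1 A2A against APP/PS1 the shares were 45.2% and 50.2%. The part of transcript length in these list values was not tested. Of 28 interferon genes, 2 were positive against WT (median -0.20) and 22 against APP/PS1 (median 0.13), but without APP/PS1 A2A replicate 1 the median against APP/PS1 was -0.08, so that the opposite signs rested on that mouse. Interneuron genes were positive for 15 of 19 against WT (0.15) and 4 of 19 against APP/PS1 (-0.10), where the median was -0.0019 without APP/PS1 A2A replicate 1.

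**Figure D5:**
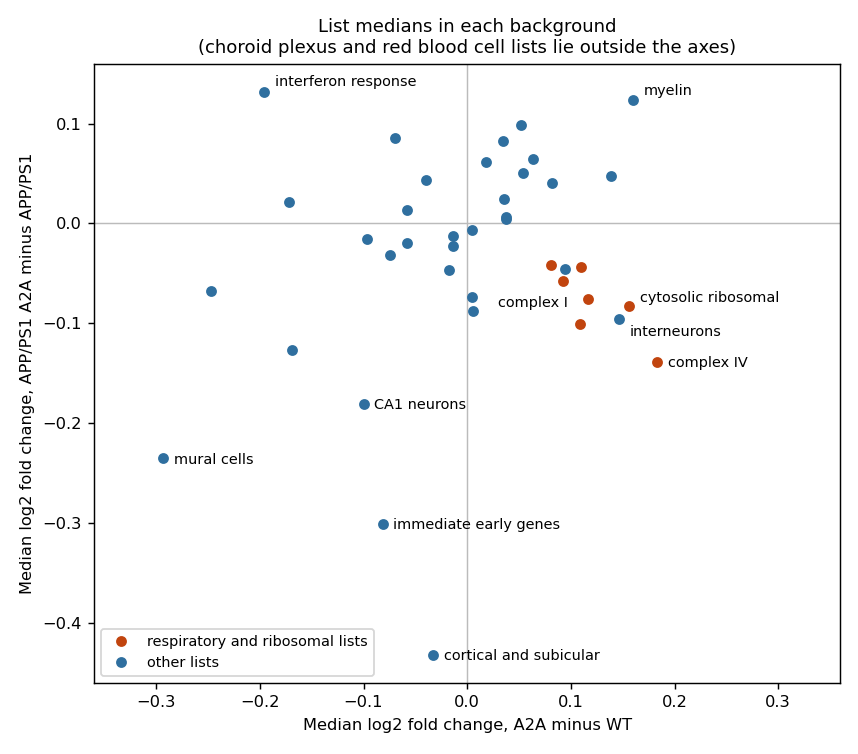
Median log2 fold change of each gene list for A2A minus WT (x axis) and APP/PS1 A2A minus APP/PS1 (y axis), a point being a list, with the choroid plexus and red blood cell lists outside the axes. The medians had the same sign in 24 of 42 lists and opposite signs in 18, complex IV lying at 0.18 and -0.14.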

How the data were processed

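Hippocampal RNA of 19 mice was measured, and 1 library was 1 mouse. The authors sequenced stranded polyadenylated RNA as single reads, trimmed them, removed ribosomal reads, aligned the rest to mm10 with STAR 2.5.3a and counted reads per gene with HTSeq 0.6.1p1. The deposited counts are raw. The deposited table also holds log2 fold changes of the authors' DESeq2 1.16.1 comparisons, which were not used. Likewise the deposited p-values and adjusted p-values of the authors' comparisons were not used.

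Genes were kept by edgeR's filterByExpr over the 4 groups at a minimum count of 10. Counts were TMM normalised and fitted with edgeR 4.0.16 in R 4.3.3 (robust quasi-likelihood), with APP/PS1 and A2A as terms for the main effect and 4 group means for the background contrasts and the interaction. Calls used the study's thresholds, an adjusted p below 0.05 with a log2 fold change beyond 0.32 either way. Standard errors and 95% intervals come from the same fit. No pair of libraries agreed within sampling noise (171 pairs, lowest chi-square per degree of freedom 12.3). Depth ranged from 21305902 to 53717373 counts and limits low genes most. The script was tested on simulated data.

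The contrast, the 42 gene lists and the tests were chosen with earlier results of these data known. Named genes were the adenosine receptors and cassette genes, the 10 genes of smallest unadjusted p in each direction where fewer than 10 were called, up to 3 members of smallest p in each list, and the 3 genes of smallest interaction p. A gene of the cassette list is not reported here. Ttr was named outside this rule, after its value was seen. Lists are described by counts and medians, without a set test. A promoter search was void, because 12915 of 18529 tested genes (69.7%) matched a RefSeq promoter. Alternatives were DESeq2 1.42.0, limma-voom from limma 3.58.1 with and without quality weights, other size factors and filters, 1 surrogate variable from sva 3.50.0, a choroid plexus term, no APP/PS1 term, thinned counts and each mouse left out.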

Additional observations from a re-analysis of the deposited data

Results flagged for a closer look

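The search covered 31 genes, all named above except the unreported gene of the cassette list. In each gene, 4 groups were searched for a mouse far from the rest of its group, and 10 of 124 searches (8.06%) found 1. By chance about 1 in 20 would. Adora2a was 9.35 CPM in A2A replicate 1, the next A2A mouse having 2.27 CPM, and 10.3 CPM in APP/PS1 A2A replicate 1, the next APP/PS1 A2A mouse having 1.96 CPM. The same APP/PS1 A2A mouse had the highest Frat1 of its group, 13 CPM, with 9.85 CPM next. The same A2A mouse had the lowest Prnp of its group, 919 CPM, with 1130 CPM next.

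The lincRNA 2410004I01Rik was lowest in A2A replicate 5 at 0.388 CPM, with 0.592 CPM next, and Lrrc14 was highest in A2A replicate 3 at 23.6 CPM, with 20.8 CPM next. Among mice without A2A, APP/PS1 replicate 4 was highest for Gk5 at 7.11 CPM, with 5.96 CPM next, and for Gm26779 at 2.37 CPM, with 1.13 CPM next. APP/PS1 replicate 1 was highest for 2610318N02Rik at 0.340 CPM, with 0.248 CPM next. Lamr1-ps1 was at 0.423 CPM in WT replicate 1, with 0.0684 CPM next, far below every mouse with APP/PS1.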

How the results depend on the processing

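The main effect called 0 genes under 32 of 33 alternatives and with each mouse left out (range 0 to 0), and DESeq2 called 1 (Smtn). The interaction called 0 under 30 of 31, DESeq2 calling 1 (Capn11), and A2A against WT called 0 under 31 of 32, DESeq2 calling 1 (Capn11). APP/PS1 A2A against APP/PS1 called 0 under all 32, the lowest adjusted p being 0.114. Main-effect genes under an unadjusted p of 0.05, 521 as reported, numbered 296 without APP/PS1 replicate 4, 318 without A2A replicate 3, 815 without APP/PS1 replicate 1, 880 without APP/PS1 replicate 5 and 1321 among 35640 genes without a filter. The cause of the differences between tools was not tested. Smtn stayed negative throughout, at -0.69 to -0.57 with each mouse left out.

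Genes changed sign both with an effect near 0, such as App and Aes, and with a larger one. Lcn2 was at 2.37 in the main fit, and Spag16 lay between -0.91 and -0.29 with each mouse left out. App was -0.0025 and became 0.024 with quality weights, 0.0057 with upper quartile factors, 0.0037 without a filter on low counts, 0.022 with a surrogate variable, 0.034 with the choroid plexus term, 0.00094 as the average over 4 group means and 0.056 with A2A replicate 1 and APP/PS1 A2A replicate 1 both left out, an alternative chosen after seeing the data. Leaving out each mouse gave App -0.031 to 0.035, Aes -0.041 to 0.052, Drd1 -0.083 to 0.44, Vwf -0.024 to 0.44 and Prnp -0.012 to 0.057. Aes was -0.0038 with the surrogate variable, -0.0057 with the choroid plexus term and -0.014 over group means. Drd1 was -0.0067 and Vwf -0.0038 with quality weights, and with both mice left out Drd1 was -0.12, Vwf -0.18, Lcn2 -0.030 and mt-Nd4 -0.015. The choroid plexus term gave Rsph4a 0.22, Ppp1r1b 0.051, Map3k15 0.21, Spag16 0.36, Cfap126 0.28 and Prnp -0.019, and the surrogate variable gave Rsph4a 0.025. Without the APP/PS1 term Prnp was -0.043 and Lamr1-ps1 -0.043. No paired analysis was possible because the labels carry no replicate numbers; those used here only name the mice and tie none to a litter, batch or day. Genes under 1 CPM are limited most by depth.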
